A study of Mus musculus with 9 samples.

Results

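The semaphorins, plexins and neuropilins were followed in RNA-seq libraries of mouse lambdoidal junction tissue, the site at which the maxillary prominence meets the nasal ones on either side of the nasal pit. Members were taken by symbol from the deposited gene table, as protein-coding rows named Sema of classes 3 to 7, Plxn A to D, or Nrp. This gave 31 genes of 54532 in the table (22046 protein-coding): 20 semaphorins, 9 plexins and 2 neuropilins. The tissue came from C57BL/6J embryos of 3 stages 1 day apart, E10.5, E11.5 and finally E12.5 (days of embryonic development), with 3 libraries for each. Every library was made from a pool of embryos, so the spread between libraries is one between pools and not between single embryos. All groups were of the same strain, and no mutation or treatment is named for any of them. Age is the only difference between the stages that the sources used here name, and whether the stages were processed together is not given. Comparisons were made over the first interval (E11.5 vs. E10.5), the second interval (E12.5 vs. E11.5) and the whole span (E12.5 vs. E10.5), to ask which of these genes change while the prominences meet and fuse. Any pair of these comparisons shares the libraries of 1 stage.

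Semaphorins are guidance ligands built around a sema domain. Those of class 3 are secreted, those of classes 4, 5 and 6 span the membrane, and Sema7a is held at the membrane by a GPI anchor. Plexins are their receptors and act through an intracellular domain on small GTPases and, through these, on the cytoskeleton and on adhesion. Most secreted semaphorins bind a neuropilin, which serves as the ligand-binding co-receptor of an A plexin, while the neuropilins also bind VEGF. In the embryonic face the family is known for steering cranial nerve axons, blood vessels and migrating neural crest cells.

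Expression is given as CPM (counts scaled to a common library size, with TMM factors), or as FPKM where genes are compared with each other. A DEG (differentially expressed gene) passed both an adjusted p of 0.05 and a log2 fold change of 1 in either direction, in edgeR's quasi-likelihood test across all genes, and "rose" and "fell" are used of DEGs only. Errors of log2 fold changes are standard errors. In bulk tissue, fewer cells of a type and less RNA per cell cannot be told apart.

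Sequence upstream of the start is shown for Sema4f, Sema5a and Nrp2, the members that rose in the first interval. A RefSeq promoter (GRCm38.p6) was found for 26 of the 31 members. Each window runs from 250 to 33 bases before the RefSeq start (218 bases), and capitals mark matches to 4 motifs on either strand: the GC box GGGCGG, the CCAAT box CCAAT, the TATA box TATAAA and the E-box CACCTG. The windows lie at chr6:82939802-82940019 (minus strand) for Sema4f, chr15:32244563-32244780 (plus strand) for Sema5a and chr1:62703067-62703284 (plus strand) for Nrp2.
Sema4f: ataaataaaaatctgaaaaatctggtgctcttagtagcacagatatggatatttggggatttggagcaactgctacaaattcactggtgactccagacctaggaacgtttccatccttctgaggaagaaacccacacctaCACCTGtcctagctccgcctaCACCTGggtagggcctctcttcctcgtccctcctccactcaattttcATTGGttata
Sema5a: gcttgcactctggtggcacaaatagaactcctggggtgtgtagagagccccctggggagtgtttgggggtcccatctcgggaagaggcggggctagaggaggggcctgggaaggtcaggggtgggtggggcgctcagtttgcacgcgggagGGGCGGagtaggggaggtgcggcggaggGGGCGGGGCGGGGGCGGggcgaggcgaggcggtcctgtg
Nrp2: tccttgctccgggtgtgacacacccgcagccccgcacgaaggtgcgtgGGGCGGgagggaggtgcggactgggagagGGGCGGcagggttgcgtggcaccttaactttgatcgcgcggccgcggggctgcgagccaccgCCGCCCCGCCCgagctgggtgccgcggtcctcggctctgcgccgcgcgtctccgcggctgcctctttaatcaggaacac

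The window of Sema4f had a GC content of 45.4% and 3 CpG dinucleotides, with 2 E-boxes and 1 CCAAT box. That of Sema5a had 70.6% GC and 14 CpG, and that of Nrp2 had 72.5% GC and 28 CpG. Each of these 2 GC-rich windows held 4 GC boxes, some of which overlap. Of 32841 RefSeq promoters over the same window, 28.2% held a GC box, 30.8% a CCAAT box, 15.4% an E-box and 9.87% a TATA box, and the medians were 51.8% GC and 5 CpG. The 3 genes that rose in the same interval had none of the 4 motifs in common across all 3 windows. Bases nearer to the start than the end of the window were not searched, so a motif there, a TATA box included, could not be found.

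Library totals were 16581009 to 20836804 counts. Facial mesenchyme markers (Prrx1, Alx4, Msx1, Twist1, Pdgfra, Tfap2a, Dlx1 and Dlx2) summed to 994 to 1520 CPM in the E10.5 libraries, to between 2170 and 2310 in those of E11.5 and to between 2080 and 2510 in those of E12.5, and all 8 were detected. Macrophage markers summed to 20.9 to 35.8 CPM and muscle markers to 2.5 to 5.19 CPM over the 9 libraries. Between 2 libraries of a stage, the SD over genes of the log2 difference was 0.373 to 0.417 at E11.5 and 0.494 to 0.591 at E12.5. At E10.5 it was 0.393 between replicates 1 and 2, and 0.711 and 0.703 with replicate 3. E10.5 replicate 3 stood apart from its stage, also in base composition over all genes. Across genes, Spearman's rho between GC content and the log2 ratio of a library to the mean of its stage mates was -0.654 for it, 0.561 and 0.593 for the other E10.5 libraries, whose mates include it, and -0.332 to 0.349 at the later stages. Its endothelium markers summed to 109 CPM against 293 and 278 in the other E10.5 libraries, its epithelium markers to 1000 CPM against 553 and 635, and its facial mesenchyme markers to 994 against 1520 and 1500. Its part in the results was not tested beyond fits without it. These are given where they changed a DEG call, and for some other members.

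Among the members the difference also went with base composition. All 17 members whose longest transcript has a GC content of at least 55% (Plxnb3 left out for low counts) were lower in it than the mean of the other E10.5 libraries, down to 0.235-fold for Plxnd1 (50.1 against 214 CPM). Of the 5 members below 45% GC, 4 were higher. These were Sema3c (2.72-fold), Sema3e (2.62-fold), Sema3d (2.48-fold) and Sema3a (1.79-fold), while Nrp1 was at 0.332-fold. Over 30 members Spearman's rho of the log2 ratio with GC content was -0.54, all points coming from the same libraries.

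**Figure D1:**
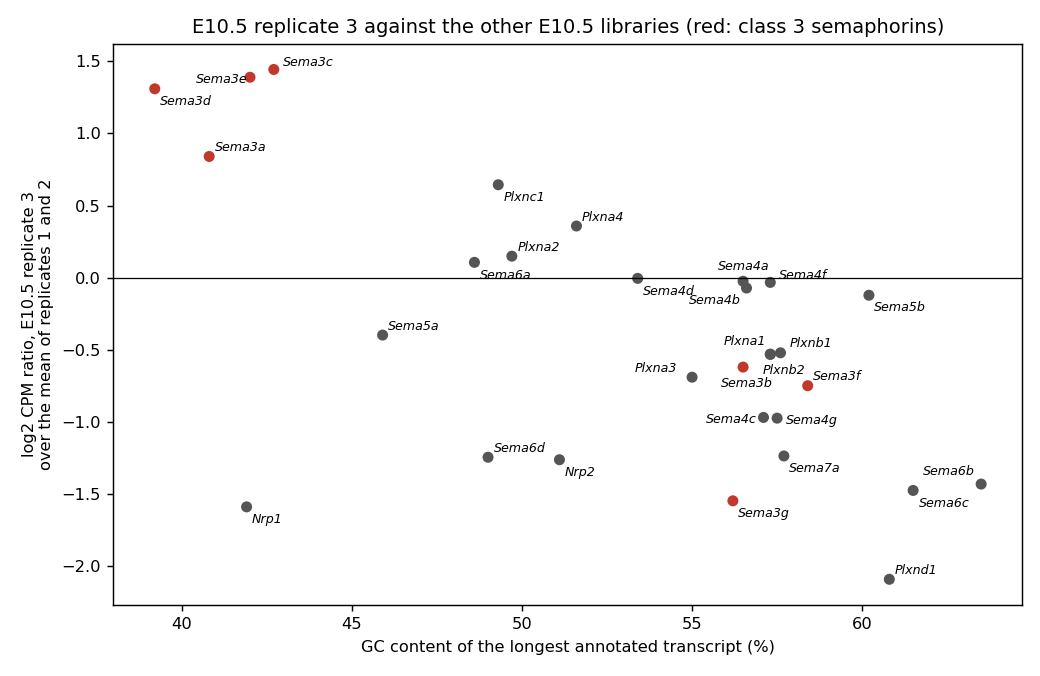
Log2 ratio of CPM in E10.5 replicate 3 over the mean of E10.5 replicates 1 and 2 (y axis) against the GC content of the longest transcript in percent (x axis), 1 point per member, class 3 semaphorins in red. The 4 low-GC class 3 genes lie above 0, the 17 members at or above 55% GC lie below it, and Nrp1 is the low-GC exception.

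Per gene length the receptors were among the most abundant members. Plxnb2, a broadly expressed B plexin, had the highest FPKM at every stage, with 49.5 ± 9.97 (SD, n = 3) at E10.5, then 58.6 ± 2.11 and lastly 50.2 ± 13.0, and its libraries did not overlap with those of the next gene at any stage. Behind it at E11.5 came Plxnd1 (24.5 ± 1.63), the plexin best known from endothelium, the secreted ligand Sema3f (24.0 ± 1.06) and Plxna1 (21.7 ± 0.80). Plxnd1 and Sema3f overlapped with each other, and Sema3f did not overlap with Plxna1. At the other end Plxnb3, known from oligodendrocytes, stayed at or below 0.0733 FPKM on average at every stage.

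The order was loose at E10.5 and E12.5, where 4 of the 30 pairs of neighbours in it did not overlap, and tighter at E11.5, where 12 did not. The number of members with a mean of at least 1 FPKM was 26, 27 and 28 at the 3 stages in turn, and that at 10 FPKM or more was 6, 10 and 10. Summed FPKM of the semaphorins was 94.9 ± 10.6, 117 ± 4.51 and 128 ± 18.1 from the earliest to the latest stage. That of the plexins was 137 ± 33.6, 139 ± 5.07 and 112 ± 31.5. The largest shifts in the order were those of Sema4f, from rank 30 of 31 at E10.5 to rank 15 at E12.5, and of Sema5b, from rank 20 to rank 30.

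**Figure D2:**
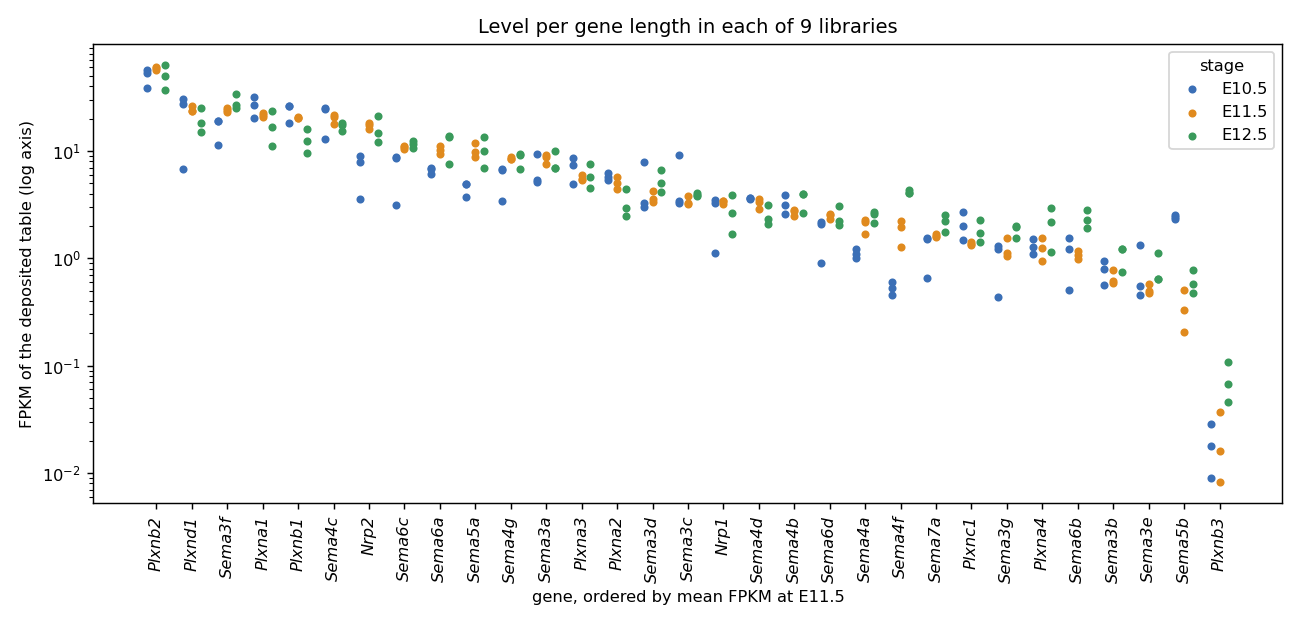
Deposited FPKM (log axis) of the 31 members in each of the 9 libraries, genes ordered by mean FPKM at E11.5 and coloured by stage. Plxnb2 is highest and Plxnb3 lowest at every stage, and the points of Sema4f climb and those of Sema5b drop after E10.5.

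In the first interval 3 members rose (Sema4f, Sema5a and Nrp2) and 1 fell (Sema5b), 4 of the 30 tested (13.3%), where 6.07% of all genes tested were DEGs (3.46% higher and 2.61% lower). In the second interval Sema4f and Sema6b rose and no member fell, 2 of 30 (6.67%) against 5.1% of all genes (4.14% higher, 0.962% lower). Over the whole span Sema4a, Sema4f, Sema5a, Sema6b and Nrp2 rose and Sema5b fell, 6 of 30 (20%) against 15% of all genes. Sema4f was a DEG in all 3 comparisons, 4 members were in 2 and Sema4a in 1, and 25 members, all 9 plexins among them, were in none. Plxnb3 was not tested, with at most 13 counts in any library.

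The median log2 fold change of the tested members was 0.09 in the first interval, 0.15 in the second and 0.23 over the whole span, beside -0.03, 0.02 and -0.01 over all genes. Single libraries moved the members' medians, in the first interval to 0.03 without E10.5 replicate 3 and, at the other end, 0.26 when replicate 1 of that stage was left out, to 0.08 without E12.5 replicate 2 and 0.21 without E12.5 replicate 3 in the second, and to 0.08 and 0.35 without these same E12.5 libraries over the whole span. Members without overlap between the libraries compared numbered 13 of 30 (43.3%, against 36.6% of all genes), 7 of 30 (23.3%, against 35.4%) and 14 of 30 (46.7%, against 42.4%). In the test of the 3 stages together, 10 of 30 members had an adjusted p of at most 0.05, as had 28.3% of all genes. They were the 6 DEGs together with Sema3f, Sema6a, Plxna2 and Plxnb1.

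**Figure D3:**
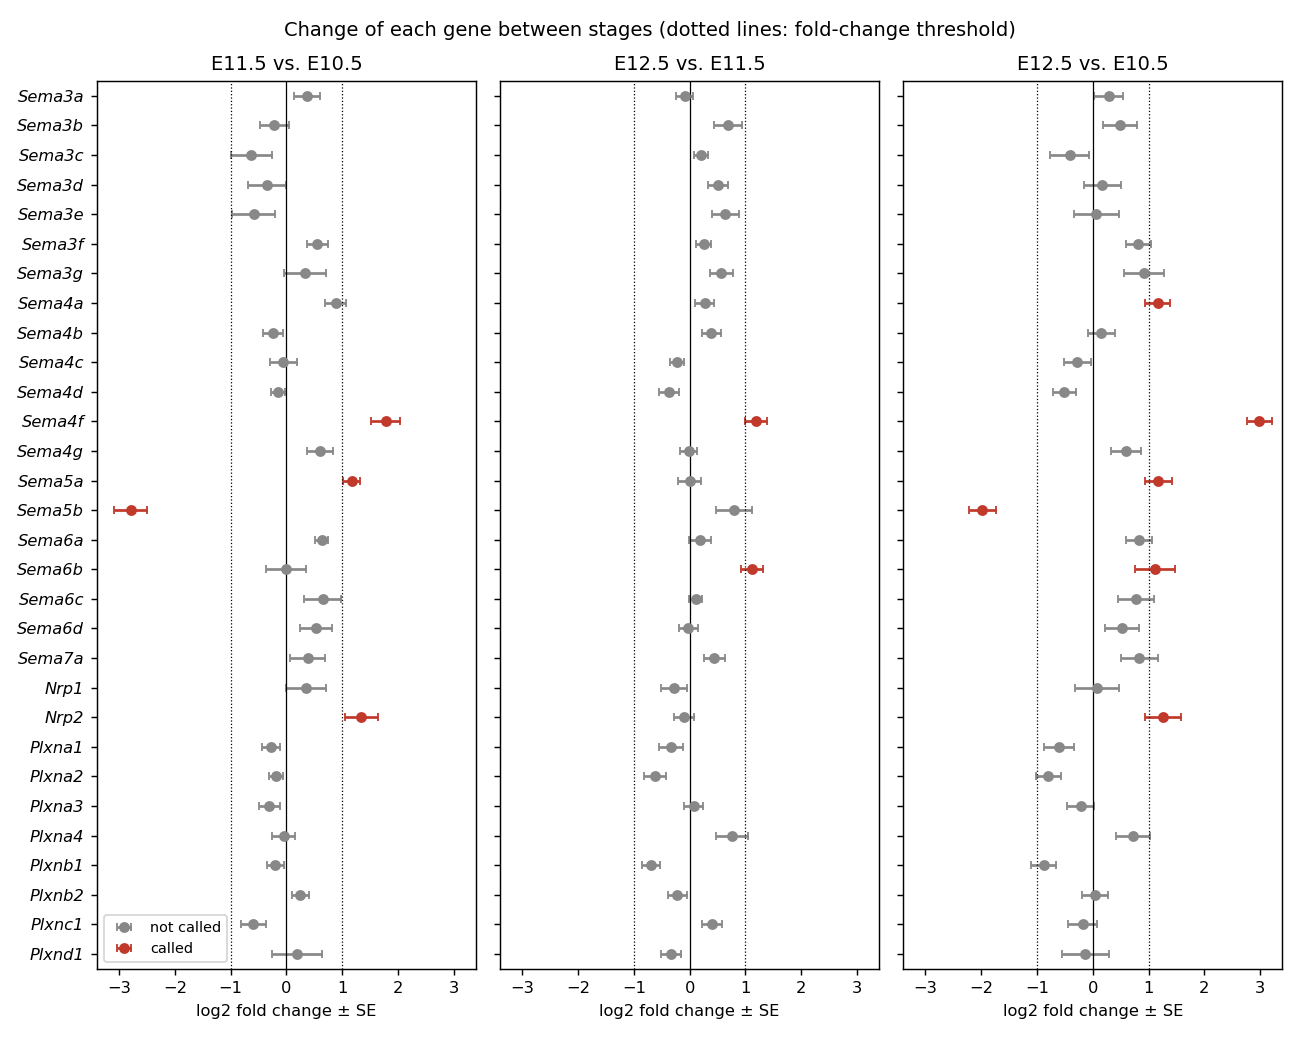
Log2 fold change with its standard error (x axis) of the 30 tested members (y axis) in the 3 comparisons, DEGs in red and dotted lines at the fold-change threshold of 1. The red points are Sema4f in every comparison, Sema5a, Sema5b and Nrp2 in the 2 comparisons with E10.5, Sema6b in the 2 with E12.5, and Sema4a at E12.5 vs. E10.5, with every plexin in grey.

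Of the class 3 semaphorins none was a DEG. By edgeR 1 of the 7 had an unadjusted p below 0.05 in the first interval, 4 in the second and 2 over the whole span. The share of all genes at that unadjusted p was not counted, so these counts are not read as a result. At an adjusted p of at most 0.05 and any fold there were 0, 0 and 1 of 7, against 11.8%, 12.2% and 24.6% of all genes. DESeq2 gave no DEG among the 7 either. Sema3f, the ligand best known for binding Nrp2, measured 99.3, 99.3 and 59.1 CPM at E10.5, 132, 121 and 125 at E11.5, and 143, 177 and 131 at E12.5. Its E10.5 libraries were all below the later ones. The log2 fold change was 0.82 ± 0.23 at E12.5 vs. E10.5 (adjusted p = 0.0229), short of the fold threshold.

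Sema3a, the classical axon-repelling ligand of Nrp1, measured 71.8, 74.6 and 131 CPM at E10.5 and 105 to 128 at E11.5. One E10.5 library, replicate 3, was above all of the E11.5 ones. Its log2 fold change at E11.5 vs. E10.5 was 0.36 ± 0.23 (adjusted p = 0.343), and 0.70 without that library (adjusted p = 5.28e-05). Leaving it out took the share of all genes with an adjusted p of at most 0.05 from 11.8% to 39.6%. Sema3c, known from the cardiac outflow tract, measured 25, 23.4 and 65.8 CPM at E10.5 and 22.9 to 27.3 at E11.5. With E10.5 replicate 3 its log2 fold change was -0.63 and without it 0.03, and the signs of Sema3d and Sema3e, the latter a ligand that binds Plxnd1 without a neuropilin, turned in the same way, from -0.35 to 0.23 and from -0.59 to 0.04.

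These 4 genes are neighbours on chromosome 5, within 5.35 Mb (mm10, positions 12383385 to 17730268), with a GC content of 39.2% to 42.7%. Sema3b and Sema3f lie within 0.113 Mb of each other on chromosome 9 (107597674 to 107710475) and are GC-rich (56.5% and 58.4%). Sema3b was low, at 2.73 to 5.9 CPM over the 9 libraries, and its log2 fold change at E12.5 vs. E11.5 was 0.69 (adjusted p = 0.0938). Sema3g, known from endothelium, measured 6, 5.57 and 1.98 CPM at E10.5, 4.84, 5.15 and 7.06 at E11.5, and 9.3, 8.95 and 7.16 at E12.5. The E12.5 libraries were all above the earlier ones, and at E12.5 vs. E10.5 the log2 fold change was 0.91 ± 0.36 (adjusted p = 0.0914), and 0.56 without E10.5 replicate 3.

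In class 4, Sema4f rose throughout. This semaphorin is known from neurons, where its cytoplasmic tail binds a synaptic scaffold protein. Sema4f (ENSMUSG00000000627, mm10 chromosome 6, 82911885 to 82939769, minus strand) measured 3.27, 2.44 and 2.79 CPM at E10.5, 11.8, 6.78 and 10.5 at E11.5, and 22, 23.3 and 21.6 at E12.5. The libraries of the 3 stages did not overlap. The log2 fold change was 1.78 ± 0.26 at E11.5 vs. E10.5 (adjusted p = 0.00568) and 1.20 ± 0.19 at E12.5 vs. E11.5 (adjusted p = 0.00302), in all a 7.9-fold rise from E10.5 to E12.5 (2.98 ± 0.23, adjusted p = 8.52e-06). The rise in the second interval fell below the fold threshold without E11.5 replicate 2 (0.97). The difference between its intervals, -0.58 ± 0.37 on the log2 scale, did not pass the test (adjusted p = 0.584).

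Neuron markers summed to 223 to 246 CPM in the E10.5 libraries, to between 271 and 296 one day later and to between 400 and 476 at the last stage, and all 10 were detected. Most of the difference in the sum between the first and the last stage was that of Stmn2, a tubulin-binding protein of growing axons (mean of 17.5, 37.5 and 106 CPM from the earliest to the latest stage), and Gap43, a growth cone protein (40.8, 74.3 and 121 CPM). Stmn2 rose in every comparison, Gap43 over the whole span, and no marker of the list fell in any. In the first interval 6 of the 10 had a log2 fold change above 0 and 4 below it, with a median of 0.08, and the median was 0.32 in the second interval and 0.40 over the whole span. The markers' part in the rise of Sema4f was not tested. Neural crest glia markers summed to 64.6 to 81.5, 82.1 to 89.2 and 89.1 to 122 CPM at the 3 stages. In the first interval 1 of the 6 rose (Sox10) and 1 fell (Fabp7), in the second 3 rose, and over the whole span 4 rose and 1 fell, with medians of 0.74, 0.95 and 1.68 on the log2 scale. Of all genes 6.07%, 5.1% and 15% were DEGs in these comparisons. The part of these glia markers was not tested either.

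Sema4a, a ligand known from the immune system and the retina, measured 6.77, 5.46 and 6.01 CPM at E10.5, 9.15, 12.5 and 12 at E11.5, and 14.9, 14 and 11.6 at E12.5. All E10.5 libraries were below all later ones, while E11.5 and E12.5 overlapped. It rose by 1.16 ± 0.22 on the log2 scale at E12.5 vs. E10.5 (adjusted p = 0.00373). At E11.5 vs. E10.5 the value was 0.88 ± 0.19 (adjusted p = 0.022), just short of the fold threshold, and at E12.5 vs. E11.5 it was 0.27.

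The other members of class 4 were not DEGs. Sema4c, a ligand of Plxnb2, ranged from 59 to 116 CPM and Sema4g from 16.9 to 47 CPM, both with their lowest value in E10.5 replicate 3. Sema4d, the ligand of Plxnb1, ranged from 16.3 to 28.3 CPM, with a log2 fold change of -0.51 at E12.5 vs. E10.5 (adjusted p = 0.0905). Sema4b ranged from 14.2 to 22.8 CPM. Of the Sema4c exon bases 7.27% are shared with an antisense gene, D430040D24Rik, and whether counting used the strand is not given in the sources used here.

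The pair of class 5 genes, which carry thrombospondin repeats beside the sema domain and are known to act on retinal axons and neurites, moved in opposite directions. Sema5a (ENSMUSG00000022231, mm10 chromosome 15, 32244810 to 32696341, plus strand) measured 93.9, 91.9 and 70.5 CPM at E10.5, 224, 165 and 184 at E11.5, and 190, 253 and 132 at E12.5. Its later libraries all lay above the E10.5 ones, with E11.5 inside the range of E12.5. It rose by 1.17 ± 0.16 at E11.5 vs. E10.5 (adjusted p = 0.00411) and had a log2 fold change of 0.00 ± 0.21 at E12.5 vs. E11.5 (adjusted p = 0.998). At E12.5 vs. E10.5 the rise was 1.17 ± 0.24 (adjusted p = 0.00517), and 0.92 without E12.5 replicate 2. The summed facial mesenchyme markers given above were likewise lowest at E10.5. In the first interval 3 of the 8 were called (2 higher and 1 lower), beside 6.07% of all genes. The part of these markers in the rise of Sema5a was not tested.

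Sema5b (ENSMUSG00000052133, mm10 chromosome 16, 35541145 to 35664732, plus strand) was the only member that fell. It measured 18.4, 17.3 and 16.4 CPM at E10.5, 3.66, 2.36 and 1.47 at E11.5, and 5.58, 4.1 and 3.4 at E12.5. The E10.5 libraries, replicate 3 included, lay far above all others, and the later stages overlapped. The change was -2.79 ± 0.29 at E11.5 vs. E10.5 (to 0.144-fold, adjusted p = 0.00171) and -1.98 ± 0.25 at E12.5 vs. E10.5 (adjusted p = 0.000224).

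At E12.5 vs. E11.5 the log2 fold change of Sema5b was 0.80 ± 0.33 (adjusted p = 0.13). It was the only member that passed the test of a difference between the intervals (3.60 ± 0.54 on the log2 scale, adjusted p = 0.00825), as did 1.18% of all genes. Nrp2 (-1.43 ± 0.48, adjusted p = 0.229), Sema5a (-1.16 ± 0.37, adjusted p = 0.194) and Sema6b (1.13 ± 0.57, adjusted p = 0.469) did not pass it. The call of Sema5b was lost without E11.5 replicate 2 (adjusted p = 0.0531) or replicate 3 (adjusted p = 0.0554), with the sign kept.

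Of the forebrain and eye markers (Sox1, Rax, Six6, Emx2, Lhx2, Otp and Vax1), 6 of 7 fell in the first interval, all but Emx2, as did Sema5b. Of all genes 2.61% fell in that interval. The 7 markers summed to 143 to 193 CPM in the E10.5 libraries, 48.4 to 54.6 at E11.5 and 82.3 to 114 at E12.5. None of the 7 was at 0 in all libraries. In the second interval 4 of them were tested, with a median log2 fold change of -0.09, and only Emx2 was a DEG (1.61, from a mean of 17 to 51.9 CPM). At E12.5 vs. E10.5, 4 were called lower and 1, Emx2, higher, beside 5.08% and 9.97% of all genes. Their part in the fall of Sema5b was not tested.

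**Figure D4:**
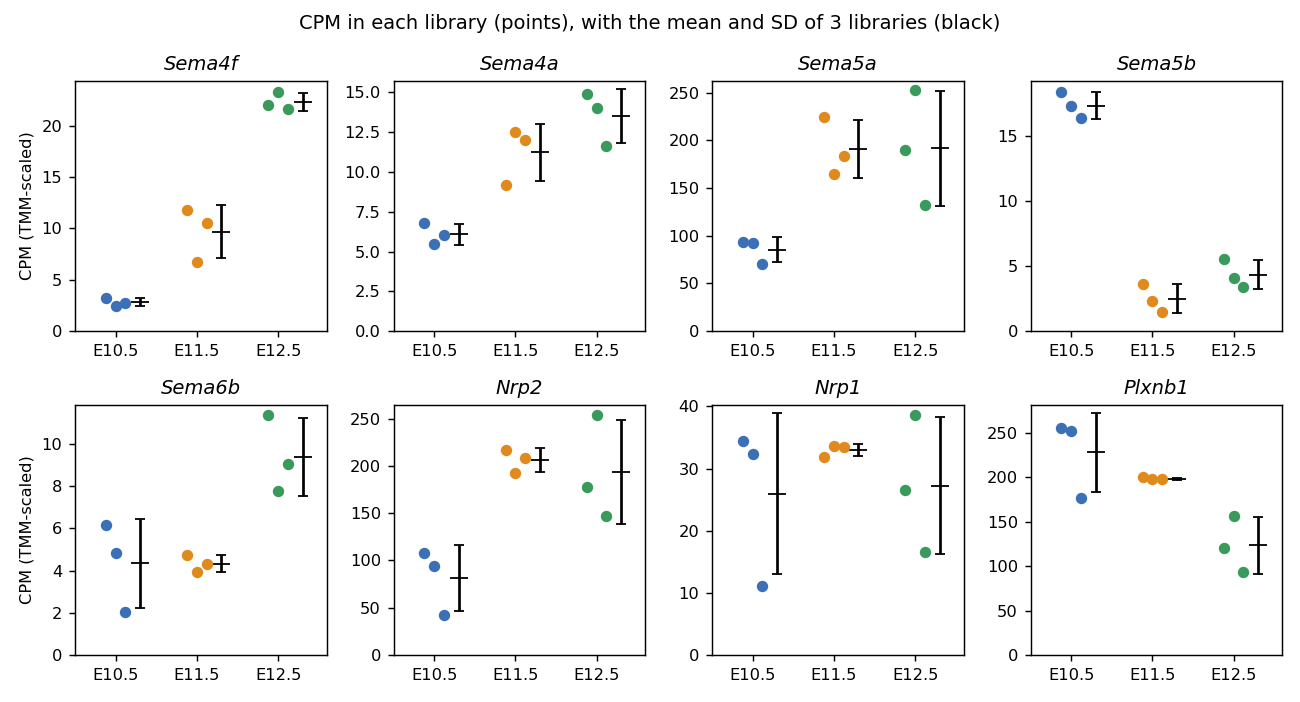
CPM (y axis, from 0) of 8 members in each library by stage (x axis), with the mean and SD of the 3 libraries in black. Sema4f separates all stages, Sema5b drops from 16.4 to 18.4 CPM at E10.5 to at most 5.58 CPM later, and the lowest E10.5 points of Nrp2 (42.1 CPM), Nrp1 (11.1 CPM) and Sema6b (2.04 CPM) are all replicate 3.

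In class 6, whose members signal to A plexins, Sema6b rose in the second interval. It measured 6.18, 4.82 and 2.04 CPM at E10.5, 4.73, 3.94 and 4.32 at E11.5, and 11.4, 7.76 and 9.06 at E12.5. All E12.5 libraries were above all others, and E10.5 and E11.5 overlapped. The log2 fold change was 1.11 ± 0.20 at E12.5 vs. E11.5 (adjusted p = 0.005) and 1.12 ± 0.36 at E12.5 vs. E10.5 (adjusted p = 0.0426).

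The calls of Sema6b were not stable, and at 63.5% it had the highest GC content of the members. After removal of each library's GC trend the values were 0.82 and 0.97, below the fold threshold. Without E10.5 replicate 3 the E12.5 vs. E10.5 value was 0.79. That call was also lost without E10.5 replicate 2 (adjusted p = 0.0614) and without each of the E12.5 libraries (adjusted p = 0.067 to 0.16), and the E12.5 vs. E11.5 call without E12.5 replicate 1 (0.96) and in a fit on all 9 libraries (adjusted p = 0.0537).

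Sema6a, a ligand of Plxna2 and Plxna4, measured 60.2, 53.9 and 61.4 CPM at E10.5, 97.4, 82.4 and 91.2 at E11.5, and 120, 122 and 67 at E12.5. Its E10.5 libraries were all the lowest. The log2 fold changes of 0.63 ± 0.11 (E11.5 vs. E10.5, adjusted p = 0.0108) and 0.83 ± 0.23 (E12.5 vs. E10.5, adjusted p = 0.0238) were short of the fold threshold. Sema6d, a ligand of Plxna1, ranged from 9.6 to 32.8 CPM, with its lowest value in E10.5 replicate 3.

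Sema6c measured 53.2, 51.3 and 18.8 CPM at E10.5, 62.3, 64.6 and 65.8 at E11.5, and 75.6, 63.7 and 69.8 at E12.5. The E10.5 libraries were all the lowest, replicate 3 by far. The log2 fold change at E12.5 vs. E10.5 was 0.77 ± 0.32 (adjusted p = 0.103), and 0.43 without that library (adjusted p = 0.0625). Sema7a, a ligand of Plxnc1 and of integrins, was low, with 5.23, 4.99 and 2.17 CPM at E10.5, 5.6, 5.34 and 5.21 at E11.5, and 8.62, 7.49 and 5.9 at E12.5. Its E12.5 libraries were all above the earlier ones, and E10.5 replicate 3 was again the lowest. The log2 fold change at E12.5 vs. E10.5 was 0.84 ± 0.34 (adjusted p = 0.0957), and 0.54 without that library.

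**Figure D5:**
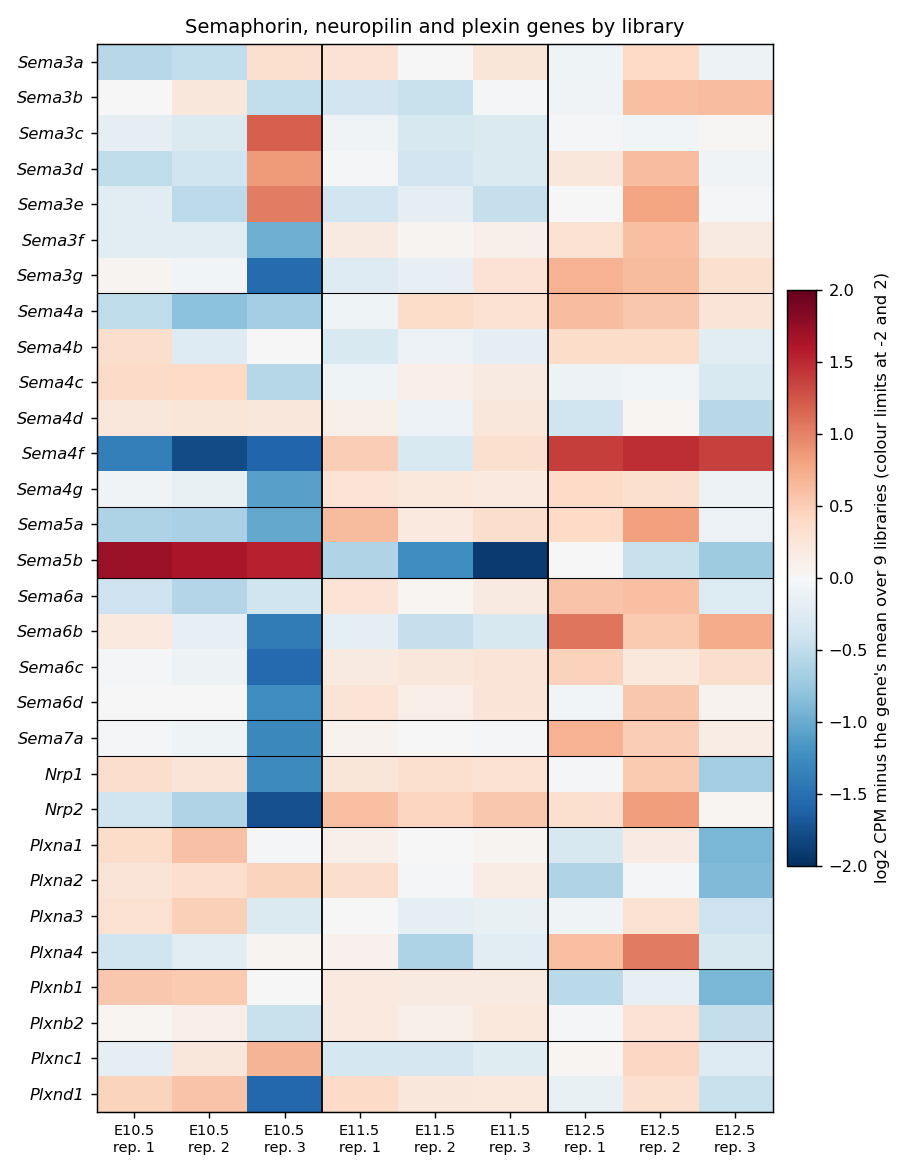
Log2 CPM of the 30 tested members in each of the 9 libraries, minus the mean of the gene over the libraries (colour limits -2 and 2), rows grouped by subfamily. Sema4f separates the 3 stages, Sema5b separates E10.5 from the later ones, and E10.5 replicate 3 differs from its stage in many rows, high for Sema3c, Sema3d and Sema3e and low for Plxnd1, Nrp1 and Nrp2.

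The neuropilins differed in level, and only Nrp2 was a DEG. Their courses were not tested against each other. Nrp2 (ENSMUSG00000025969, mm10 chromosome 1, 62703285 to 62818695, plus strand), a co-receptor for Sema3f and for VEGF-C, measured 108, 94 and 42.1 CPM at E10.5, 217, 192 and 208 at E11.5, and 178, 254 and 147 at E12.5. All E10.5 libraries were below all later ones. It rose by 1.34 ± 0.30 at E11.5 vs. E10.5 (adjusted p = 0.0255) and by 1.26 ± 0.32 at E12.5 vs. E10.5 (adjusted p = 0.0162), with -0.10 ± 0.18 at E12.5 vs. E11.5 (adjusted p = 0.754).

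E10.5 replicate 3 was the lowest Nrp2 library. Without it the log2 fold change was 1.03 at E11.5 vs. E10.5 (adjusted p = 1.53e-06) and 0.95 at E12.5 vs. E10.5 (adjusted p = 0.0114), the latter below the fold threshold. In these fits 39.6% and 30.1% of all genes had an adjusted p of at most 0.05. The call at E11.5 vs. E10.5 was lost without E10.5 replicate 2 (adjusted p = 0.0561) and without E11.5 replicate 1, 2 or 3 (adjusted p = 0.115, 0.0733 and 0.0962), fits that keep E10.5 replicate 3. At E12.5 vs. E10.5 it was also lost without E12.5 replicate 2 (adjusted p = 0.0747).

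Nrp1, the co-receptor for Sema3a and for VEGF-A, measured 34.5, 32.3 and 11.1 CPM at E10.5, 31.9, 33.7 and 33.4 at E11.5, and 26.5, 38.7 and 16.6 at E12.5. The stages overlapped. Its log2 fold changes were 0.35 ± 0.35 in the first interval, -0.28 ± 0.24 in the second and 0.08 ± 0.40 over the whole span (adjusted p = 0.567, 0.462 and 0.909). Without E10.5 replicate 3 those against E10.5 were -0.01 and -0.28. Both neuropilins are known from endothelium, whose markers in that library were at 109 CPM against 278 and 293, and at 270 to 301 CPM in the E11.5 and E12.5 libraries. What these markers contribute to the neuropilin values was not tested. In FPKM, Nrp2 was at 17.2 ± 1.06 and Nrp1 at 3.34 ± 0.10 at E11.5 (SD, n = 3).

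Of the 8 plexins tested none was a DEG by edgeR or by DESeq2. By edgeR 1 had an unadjusted p below 0.05 in the first interval, 3 in the second and 4 over the whole span. The share of all genes at that unadjusted p was not counted here either. At an adjusted p of at most 0.05 and any fold there were 0, 1 and 2 of 8, against 11.8%, 12.2% and 24.6% of all genes. The median log2 fold change of the plexins was -0.19, -0.28 and -0.20 in these comparisons, and that of the 20 semaphorins 0.35, 0.26 and 0.56. The difference between these medians was not tested. Within E12.5 every plexin and both neuropilins had their highest CPM in replicate 2 and their lowest in replicate 3. Without E10.5 replicate 3 the semaphorin median was 0.15 in the first interval, and leaving out any 1 library gave 0.15 to 0.46, 0.23 to 0.38 and 0.46 to 0.72. The plexin median ranged from -0.29 (without E10.5 replicate 3) to -0.13 in the first interval, from -0.50 (without E12.5 replicate 2) to -0.09 (without E12.5 replicate 3) in the second, and from -0.48 (without E10.5 replicate 3) to -0.05 (without E12.5 replicate 3) over the whole span.

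Plxnb1, the receptor of Sema4d, which also couples to Met and Erbb2, measured 256, 252 and 177 CPM at E10.5, 200, 198 and 198 at E11.5, and 121, 156 and 92.9 at E12.5. All E12.5 libraries were below all earlier ones. The log2 fold change was -0.69 ± 0.17 at E12.5 vs. E11.5 (adjusted p = 0.0239) and -0.88 ± 0.23 at E12.5 vs. E10.5 (adjusted p = 0.017), both short of the fold threshold. At E12.5 vs. E10.5 it passed that threshold without E10.5 replicate 3 (-1.03, adjusted p = 0.00443) and without E12.5 replicate 2 (-1.09, adjusted p = 0.0137).

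Plxna2 measured 93.8, 99.2 and 107 CPM at E10.5, 100, 76.9 and 87 at E11.5, and 51.7, 77.1 and 42.8 at E12.5. The E12.5 libraries were all below the E10.5 ones, with a log2 fold change of -0.80 ± 0.22 (adjusted p = 0.0229). Plxna1, a receptor for class 3 and class 6 ligands, ranged from 102 to 289 CPM, and 10.7% of its exon bases are shared with an antisense gene, Gm26811. Plxna3 ranged from 36.2 to 67.4 CPM. At E11.5 vs. E10.5 without E10.5 replicate 3, the log2 fold change was -0.43 for Plxna1 (adjusted p = 0.000616) and -0.50 for Plxna3 (adjusted p = 0.000574). It was -0.35 for Plxnb1 (adjusted p = 0.000623) and -0.23 for Plxnd1 (adjusted p = 0.0205), and the other plexins tested were above 0.05. With that library the adjusted p was 0.295, 0.331, 0.417 and 0.822 in turn. In the fit without it, 39.6% of all genes had an adjusted p of at most 0.05. Plxna4, a receptor for class 3 and class 6 ligands in neurons, measured 15.6, 17.8 and 21.4 CPM at E10.5, 21.8, 13.4 and 17.6 at E11.5, and 31.2, 42.1 and 16.4 at E12.5. Its E10.5 and E11.5 libraries overlapped, and those of E12.5 overlapped with them through replicate 3 only. The log2 fold change was 0.76 ± 0.29 at E12.5 vs. E11.5 (adjusted p = 0.111).

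Plxnb2 ranged from 292 to 494 CPM with log2 fold changes of 0.25 in the first interval, -0.22 in the second and 0.03 over the whole span. Without E10.5 replicate 3 the first of these was 0.09. Plxnd1 measured 204, 223 and 50.1 CPM at E10.5 and 110 to 195 CPM later, and its log2 fold change at E11.5 vs. E10.5 turned from 0.19 to -0.23 without E10.5 replicate 3. The endothelium markers of that library were low as well. Plxnc1, the receptor of Sema7a, ranged from 11.2 CPM to 22.9 CPM, the latter in E10.5 replicate 3, with -0.59 ± 0.22 at E11.5 vs. E10.5 (adjusted p = 0.122) and -0.35 without that library. Plxnb3 had 1, 2 and 3 counts at E10.5, 1, 5 and 2 at E11.5, and 8, 13 and 5 at E12.5, at or near the limit of detection.

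How much E10.5 replicate 3 weighed on the members was counted over the comparisons with E10.5. Without it 7 of 30 members changed sign at E11.5 vs. E10.5 (Sema3c, Sema3d, Sema3e, Sema3g, Nrp1, Plxna4 and Plxnd1) and 4 at E12.5 vs. E10.5 (Sema3c, Nrp1, Plxnb2 and Plxnc1). None of these was a DEG. The share of all genes that changed sign was not counted, so these counts are not read as a result about the members. Without that library DEGs among the members numbered 4 and 5, where 9.79% and 16.6% of all genes were DEGs. The number of members with an adjusted p of at most 0.05, at any fold, went from 6 (20%) to 15 (50%) at E11.5 vs. E10.5 and from 10 (33.3%) to 14 (46.7%) at E12.5 vs. E10.5. Over all genes the same share went from 11.8% to 39.6% and from 24.6% to 30.1%. At E12.5 vs. E11.5, in which it takes no part, 3 members (10%) passed at any fold, against 12.2% of all genes.

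Genes of the pathway outside the family were read from a list of 38 co-receptors, VEGF receptors and ligands, and intracellular effectors, all of which were tested. Of these, 1 was a DEG in the first interval (2.63%), 1 in the second (2.63%) and 3 over the whole span (7.89%), against 6.07%, 5.1% and 15% of all genes. The median log2 fold change of the list was 0.16, 0.11 and 0.13 in these comparisons. The 3 named below apart, no gene of the list was a DEG in any comparison, the GTPase Rac1 and the receptors Kdr, Flt1 and Met included.

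Nrcam, an adhesion molecule of neurons that associates with neuropilins, measured 20.1, 15 and 31.9 CPM at E10.5, 5.06, 5.82 and 4.85 at E11.5, and 5.01, 6.09 and 5.13 at E12.5. Its E10.5 libraries were all above the later ones. It fell by 2.09 ± 0.28 at E11.5 vs. E10.5 (adjusted p = 0.00412) and by 2.04 ± 0.29 at E12.5 vs. E10.5 (adjusted p = 0.000582), next to the fall of the forebrain and eye markers, whose part was not tested.

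Mical2, an enzyme that oxidises actin, measured 2.32, 1.16 and 1.86 CPM at E10.5, 3.71, 2.45 and 3.21 at E11.5, and 7.78, 8.57 and 6.56 at E12.5. The libraries of the 3 stages did not overlap. It rose by 1.29 ± 0.22 at E12.5 vs. E11.5 (adjusted p = 0.00383) and by 2.11 ± 0.31 at E12.5 vs. E10.5 (adjusted p = 0.000734). Dpysl5, a member of the collapsin response mediator proteins that relay semaphorin signals, measured 78.9, 85.4 and 110 CPM at E10.5, 46.7, 50.8 and 53.1 at E11.5, and 35.7, 56.3 and 36 at E12.5. Its E10.5 libraries were the highest, and it fell by 1.10 ± 0.23 at E12.5 vs. E10.5 (adjusted p = 0.00541).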

How the data were processed

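The samples were 9 RNA-seq libraries of lambdoidal junction tissue, grouped by the developmental stage in the labels, 3 per stage. The authors mapped reads with HISAT2 2.0.5 to mm10 and counted them per gene with featureCounts. Strand setting and treatment of multi-mapping reads are not given in the sources used here. The authors deposited 1 table with raw read counts and FPKM per gene and library, which were used here, and with their own means, fold changes and p-values, which were not. The deposited counts per library were 16581009 to 20836804. Reads carry no molecular identifiers, so depth describes counting error only.

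For every comparison the 6 libraries of its stages were fitted alone in R 4.3.3 with edgeR 4.0.16 (filterByExpr, TMM, glmQLFit with a prior count of 0.125, glmQLFTest, limma 3.58.1) with Benjamini-Hochberg adjustment over all genes tested. A DEG passed an adjusted p of 0.05 and a log2 fold change of 1 in either direction. The standard error was obtained by dividing the size of the log2 fold change by the root of its F statistic. The 3 stages together and the difference between the intervals were tested on all 9 libraries. With 3 libraries against 3 an exact permutation test cannot go below p = 0.1, so p-values come from the edgeR model and measure the spread between pooled libraries. The fit was checked on simulated data with known changes. These had the same spread for every gene and no outlying library, so the check does not cover a library such as E10.5 replicate 3. CPM used TMM-scaled totals of all 9 libraries. FPKM, as deposited, served only to compare levels between genes, without a test. GC content and exon overlap came from GENCODE M21, in which all 31 members had the coordinates of the table. Python 3.11.15 (pandas 2.3.3, numpy 2.4.6, matplotlib 3.10.9 and scipy 1.17.1) served for tables and plots.

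Per-library values with tests are given for members that were DEGs and for both neuropilins, and for members with a fold change within 0.25 of the threshold. Called genes of the partner list are named. Some genes of the marker lists are not reported here and were left out of the sums. Tests of other members, such as Sema3a, Sema3c, Plxnc1 and Plxnd1, were chosen after their values had been seen. The members and lists were chosen with earlier results of these data known. Alternatives were DESeq2 1.42.0, other normalizations, filters and thresholds, removal of each library's GC trend (lowess, span 0.3), the replicate number as a block, and each library left out.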

Additional observations from a re-analysis of the deposited data

How the results depend on the processing

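The DEG counts of the members, 4 in the first interval (E11.5 vs. E10.5), 2 in the second (E12.5 vs. E11.5) and 6 over the whole span (E12.5 vs. E10.5), were the same by DESeq2. No result turned its direction while it was called. With a test against the fold threshold itself (edgeR's glmTreat) the counts were 1, 0 and 2 for the members (unadjusted p below 0.05 for 3, 0 and 2), and for the partners 0 at E12.5 vs. E11.5 in place of 1 (unadjusted p below 0.05 for 1). Without a fold threshold there were 10 members at E12.5 vs. E10.5, and 4, 2 and 9 partners in place of 1, 1 and 3 in the first interval, the second interval and the whole span. Of all genes 11.8%, 12.2% and 24.6% passed without that threshold. At E12.5 vs. E11.5 the member count was 1 after GC trend removal, 1 after this with the replicate block and 1 in the fit on all 9 libraries.

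For the 3 stages together (10 members) it was 5 at an adjusted p of at most 0.01 and 18 with all genes of at least 1 count. For the difference between the intervals it was 3 in place of 1 with that filter. Apart from those without a fold threshold, counts under the alternatives are given here without the shares of all genes. They are not read as results about the members or partners. Leaving out 1 library gave 3 to 4, 1 to 3 and 5 to 7 members in the 3 comparisons, 6 to 15 over the 3 stages and 0 to 1 for the intervals, and 1 to 2 partners at E12.5 vs. E11.5. The lowest counts came without E11.5 replicate 2 or E12.5 replicate 1 (1 member at E12.5 vs. E11.5), without E12.5 replicate 1 (6 over the 3 stages) and without E11.5 replicate 2 or 3 (0 for the intervals). The partner count of 2 came without E12.5 replicate 2. The cause was not tested for any of these. With all 16 alternatives that refit the genes, Sema4a and Sema5b in their called pairs of stages kept their calls, as did Sema4f in the 2 comparisons with E10.5 and Sema5a at E11.5 vs. E10.5.

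With the replicate number as a block the member counts were 4, 2 and 7 (Sema3g added at E12.5 vs. E10.5), with 11 over the 3 stages and 1 for the intervals, and the partner count at E12.5 vs. E11.5 was 2, as it was with GC trend removal and the replicate block. Deviations of same-numbered libraries correlated at -0.151 to 0.22, and those of differently numbered ones at -0.219 to 0.223. No sign of pairing by number was seen, but with 3 libraries per stage these correlations cannot exclude it. At this depth Plxnb3 could not be compared, and genes of a few CPM, such as Sema6b, rest on few reads. Pools of embryos limit the spread that can be seen.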
